A study of Rattus norvegicus with 31 samples.

Results

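The genes described here encode proteins of the contractile machinery of fast muscle fibres. They were taken by symbol from a list of 10 (Myh1, Myh2, Mylpf, Myl1, Tnnt3, Tnni2, Tnnc2, Actn3, Mybpc2 and Myoz1), and 9 of them were found among the 11289 genes of the deposited tables. Myh2 is not analysed here. All 9 genes found passed the filter on low counts, and together they took 9.40 to 16.3% of the counts of a library, with a median of 12.5%.

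A muscle fibre contracts when myosin heads on the thick filament pull on the thin filament, and calcium starts this by binding troponin C and moving the troponin complex. Heavy chains, light chains, troponins and calsarcins exist as fast and slow forms from separate genes, and the forms a fibre makes set much of its speed and fatigue resistance. The gastrocnemius is a calf muscle of mixed fibre type in which fast fibres prevail, and shivering in the cold is a form of repeated muscle work.

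The muscle came from 31 female Sprague Dawley rats aged 7 months on chow 5001, and each animal gave 1 library. The groups were Ucp1 knockouts kept at 4 °C for 14 days (n = 8), wild-type controls kept at 4 °C for 14 days (n = 8), Ucp1 knockouts at room temperature (n = 7) and wild-type controls at room temperature (n = 8). Ucp1 encodes the mitochondrial uncoupler of brown fat thermogenesis, so the design compares cold exposure of muscle with and without it. The labels number every animal separately and name no litter, cage or batch, and they say neither how the knockout was made nor how room temperature was defined. Ucp1 is not analysed here, and genotype was taken from the labels unchecked.

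Total counts ran from 6.56 to 11.9 M per library. Levels are CPM, counts relative to the library total after TMM scaling, and because QuantSeq reads 1 tag near the 3′ end of a transcript, CPM needs no division by length. Among room-temperature controls, animals 1 and 2 differed from the rest. They held 0.630 and 0.313 CPM of the fat-cell hormone Adipoq and 1690 and 2099 CPM of slow troponin T (Tnnt1), where the 6 group mates held at least 10.7 and 3449 CPM. Cold knockout 29 was the lowest of its group for 8 of the 9 fast genes, all but the Myh1 row. Calls that rest on animals 1, 2 or 29 are given with and without them, as are the values of some members and ratios that they move. In whole muscle, fewer fibres of a type and less RNA per fibre cannot be told apart.

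The row carrying the symbol Myh1 needs a caution. The deposited table names it Myh1 and describes it as myosin heavy chain 1, a chain of type IIX fibres, but gives the rat database symbol Myh4 for the same row, and the RefSeq gene table (GRCr8) names the row's Entrez gene Myh4, a chain of type IIB fibres. The heavy chain genes are near-identical neighbours, so reads may also have been shared among them. It is called the Myh1 row here, and which fast heavy chain it counts was not resolved. Mylpf is named Myl11 in RefSeq. The Ensembl identifiers are ENSRNOG00000049695 for the Myh1 row, ENSRNOG00000017645 for Mylpf, ENSRNOG00000013262 for Myl1, ENSRNOG00000019627 for Mybpc2, ENSRNOG00000020332 for Tnnt3, ENSRNOG00000020276 for Tnni2, ENSRNOG00000015155 for Tnnc2, ENSRNOG00000019745 for Actn3 and ENSRNOG00000040122 for Myoz1.

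Upstream sequences are shown for the member that passed a test in the cold, Myoz1, and for the pair of members whose levels followed each other most closely across animals, Tnnc2 and Mybpc2. The windows are the 250 bases before the start used in the RefSeq promoter table (GRCr8), read 5′ to 3′ on the gene's strand. The last 37 bases of the Myoz1 window lie inside the span that the RefSeq gene table gives Myoz1, so the 213 bases before that span are shown. Capitals mark matches to the E-box CANNTG, the core bound by the myogenic factors MyoD and myogenin.
Myoz1, chr15:3693363-3693575, plus strand: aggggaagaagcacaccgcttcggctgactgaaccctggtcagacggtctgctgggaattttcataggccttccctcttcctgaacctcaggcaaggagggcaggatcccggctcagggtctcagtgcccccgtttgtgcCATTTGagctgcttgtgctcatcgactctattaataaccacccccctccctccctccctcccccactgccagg
Tnnc2, chr3:173935340-173935589, minus strand: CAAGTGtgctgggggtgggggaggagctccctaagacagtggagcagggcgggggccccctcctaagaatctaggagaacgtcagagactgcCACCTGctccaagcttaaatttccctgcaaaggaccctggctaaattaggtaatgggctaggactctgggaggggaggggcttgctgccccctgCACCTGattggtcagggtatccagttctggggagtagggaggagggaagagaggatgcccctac
Mybpc2, chr1:104154102-104154351, minus strand: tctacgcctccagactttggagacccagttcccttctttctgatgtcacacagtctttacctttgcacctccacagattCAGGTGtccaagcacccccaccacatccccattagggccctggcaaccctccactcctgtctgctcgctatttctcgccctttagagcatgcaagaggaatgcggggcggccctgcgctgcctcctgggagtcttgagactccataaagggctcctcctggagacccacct

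Positions count back from the start used in the promoter table. Myoz1 held 1 E-box, starting at -110. Tnnc2 held 3 E-boxes, starting at -250, -158 and -64, and Mybpc2 held 1, starting at -171. RefSeq windows were found for 8 of the 9 genes, with 2 for Myl1. Of these 9 windows, 4 reached into the annotated gene span and 8 held an E-box. Both strands were searched, and an E-box was in 65.5% of the 33469 rat windows of the same length, so its presence does not set these genes apart. A match to TCAGGTT, the MEF3 element known from muscle promoters, was in 1 of the 9 windows and in 3.3% of all windows. That window was the one of Myoz1, where the match started at -15, inside the annotated gene span, and overlapped no E-box. A match describes letters only, and whether a factor binds there was not measured.

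Thick filament genes come first. The Myh1 row had 16162 to 35155 CPM in cold knockouts (median 25225) and 30658 to 41721 CPM in cold controls (median 34665). It had 22028 to 30495 CPM in room-temperature knockouts (median 28888) and 18725 to 31665 CPM in room-temperature controls (median 25010). All 8 cold controls were above the median of the room-temperature controls and 5 were above their highest value, while 6 of 8 cold knockouts lay below the lowest cold control. The fitted log2 change with cold was -0.05 ± 0.14 (SE) in knockouts and 0.49 ± 0.14 in controls, with adjusted p = 0.943 and 0.0815 by edgeR's quasi-likelihood test. The knockout difference in the cold was -0.45 ± 0.14 (edgeR adjusted p = 0.576). The difference between the cold effects, knockouts minus controls, was -0.54 with a 95% confidence interval from -0.95 to -0.13 (edgeR adjusted p = 0.548). None of these changes in the Myh1 row passed the threshold of 0.05 over all genes.

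Mylpf, the fast regulatory light chain, had 7236 to 17288 CPM in cold knockouts (median 14226) and 11627 to 20036 CPM in cold controls (median 14556). It had 5955 to 14556 CPM in room-temperature knockouts (median 11212) and 11865 to 16524 CPM in room-temperature controls (median 12918). The groups overlapped, although 7 of 8 cold knockouts were above the median of the room-temperature knockouts. Its log2 change with cold was 0.36 ± 0.16 in knockouts and 0.18 ± 0.16 in controls (edgeR adjusted p = 0.285 and 0.624). Room-temperature knockout 10 held the 5955 CPM, and the next lowest of its group held 9924 CPM. This animal was also the lowest of its group for Myl1, Tnnt3, Tnni2 and Tnnc2. Fits that left out 1 library gave a Mylpf change in knockouts from 0.24 to 0.46.

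Myl1, the fast essential light chain, had 7234 to 15060 CPM in cold knockouts (median 12255) and 10400 to 14944 CPM in cold controls (median 12914). It had 6176 to 10381 CPM in room-temperature knockouts (median 9118) and 9449 to 18787 CPM in room-temperature controls (median 10757). Room-temperature knockouts were the low group, with 6 of 7 below the lowest room-temperature control, and 5 of 8 cold knockouts were above the highest of them. The log2 change with cold was 0.44 ± 0.16 in knockouts and 0.11 ± 0.15 in controls (edgeR adjusted p = 0.160 and 0.763). The knockout difference at room temperature was -0.46 ± 0.16 (edgeR adjusted p = 0.698). Control animals 1 and 2 held 18787 and 14871 CPM of Myl1, where the 6 group mates held 9449 to 11152 CPM. Without both, the knockout difference of Myl1 at room temperature was -0.25 and its change with cold in controls 0.32.

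Mybpc2, the fast form of myosin binding protein C, varied most among animals. It had 933 to 5350 CPM in cold knockouts (median 3359), the lowest value being animal 29, and 3060 to 6828 CPM in cold controls (median 3255). It had 2035 to 4307 CPM in room-temperature knockouts (median 2689) and 2182 to 4851 CPM in room-temperature controls (median 3015). All 8 cold controls lay above the median of the room-temperature controls, and the ranges of all groups overlapped. Its log2 change with cold was 0.10 ± 0.26 in knockouts and 0.31 ± 0.25 in controls (edgeR adjusted p = 0.933 and 0.579). Control animals 1 and 2 held 4851 and 4154 CPM of Mybpc2. Over the 10 settings other than leaving out 1 library, its change in controls ran from 0.11 to 0.53. The knockout difference of Mybpc2 at room temperature was -0.08, and ran from -0.16 to 0.14 over those settings.

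The 3 fast troponins of the thin filament showed overlapping groups in every comparison. Troponin T (Tnnt3), which ties the complex to tropomyosin, had 6524 to 13907 CPM in cold knockouts (median 11330) and 10951 to 15970 CPM in cold controls (median 12559). It had 9550 to 13358 CPM in room-temperature knockouts (median 11928) and 9869 to 17349 CPM in room-temperature controls (median 12315). Tnnt3 medians stayed between 11330 and 12559 CPM, and its log2 change with cold was -0.07 ± 0.14 in knockouts and 0.02 ± 0.14 in controls (edgeR adjusted p = 0.902 and 0.957).

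Troponin I (Tnni2), the inhibitory subunit, had 11736 to 35184 CPM in cold knockouts (median 21447) and 16513 to 34284 CPM in cold controls (median 20451). It had 14666 to 27863 CPM in room-temperature knockouts (median 19814) and 16807 to 27998 CPM in room-temperature controls (median 19705). The highest cold animals were above every room-temperature animal, but the lowest lay among them or below. The log2 change with cold was 0.15 ± 0.20 in knockouts and 0.18 ± 0.19 in controls (edgeR adjusted p = 0.823 and 0.682).

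Troponin C (Tnnc2), the calcium sensor, was the most abundant of the 9 genes in CPM and ranked 3 of the 10082 genes tested. It had 19885 to 45921 CPM in cold knockouts (median 33871) and 26953 to 51431 CPM in cold controls (median 31044). It had 22916 to 40454 CPM in room-temperature knockouts (median 26032) and 28249 to 51622 CPM in room-temperature controls (median 30108). Means in the control groups were 35386 ± 9291 CPM in the cold and 35389 ± 9009 CPM at room temperature (SD, n = 8 each). The log2 change with cold was 0.14 in knockouts with a 95% confidence interval from -0.26 to 0.54, and -0.00 in controls with an interval from -0.39 to 0.39 (edgeR adjusted p = 0.842 and 0.9998). Control animals 1 and 2 held the highest Tnnc2 levels of their group, 51622 and 44189 CPM. Without both, the change of Tnnc2 in controls was 0.18 and its knockout difference at room temperature -0.08, against -0.27 with them.

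At the Z-disc, Actn3, the alpha-actinin of fast fibres that crosslinks thin filaments, had 1398 to 2780 CPM in cold knockouts (median 2164) and 2017 to 3584 CPM in cold controls (median 2297). It had 1920 to 2817 CPM in room-temperature knockouts (median 2662) and 2085 to 3145 CPM in room-temperature controls (median 2619). Cold animals were mostly at the lower end, with 7 of 8 cold knockouts below the median of their room-temperature group and 6 of 8 cold controls below that of theirs. The log2 change with cold was -0.23 ± 0.15 in knockouts and -0.06 ± 0.14 in controls (edgeR adjusted p = 0.502 and 0.876).

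By edgeR, Myoz1 was the 1 member that passed the test in any comparison. It encodes calsarcin-2, a Z-disc protein of fast fibres that binds alpha-actinin and the phosphatase calcineurin. It had 830 to 1487 CPM in cold knockouts (median 1167) and 1350 to 1510 CPM in cold controls (median 1482). It had 1214 to 1807 CPM in room-temperature knockouts (median 1452) and 1443 to 2846 CPM in room-temperature controls (median 1648). All 8 cold controls lay below the median of the room-temperature controls and 7 of 8 cold knockouts lay below that of the room-temperature knockouts. Cold controls were a narrow group, with a coefficient of variation of 4.71%, against 26.1% in room-temperature controls. That 26.1% includes control animals 1 and 2 at 2846 and 2310 CPM, above the 1443 to 1755 CPM of the other 6.

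The log2 change of Myoz1 with cold was -0.35 ± 0.14 in knockouts and -0.35 ± 0.13 in controls, which missed the threshold singly (edgeR adjusted p = 0.207 and 0.206). Averaged over genotypes it was -0.35 ± 0.095, or 0.784-fold, and passed (edgeR adjusted p = 0.0221). The difference between the cold effects was 0.01 with a 95% confidence interval from -0.38 to 0.39. Control animals 1 and 2 held the highest Myoz1 levels, 2846 and 2310 CPM, where the 6 group mates held 1443 to 1755 CPM. Without both animals the averaged change of Myoz1 was -0.24 and no longer passed (edgeR adjusted p = 0.0587). Its change in controls was then -0.15, and the difference between the cold effects -0.19. Without either one alone the averaged change still passed.

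The knockout difference of Myoz1 was -0.31 ± 0.13 on the log2 scale in the cold and -0.32 ± 0.14 at room temperature, and neither passed (edgeR adjusted p = 0.734 and 0.698). Without control animals 1 and 2 the difference of Myoz1 at room temperature was -0.11. In the cold, 6 of 8 knockouts were below the lowest control. Means of Myoz1 were 1162 ± 243 CPM in cold knockouts, 1445 ± 68.1 CPM in cold controls, 1479 ± 190 CPM in room-temperature knockouts and 1847 ± 482 CPM in room-temperature controls (SD, n = 8, 8, 7 and 8).

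**Figure D1:**
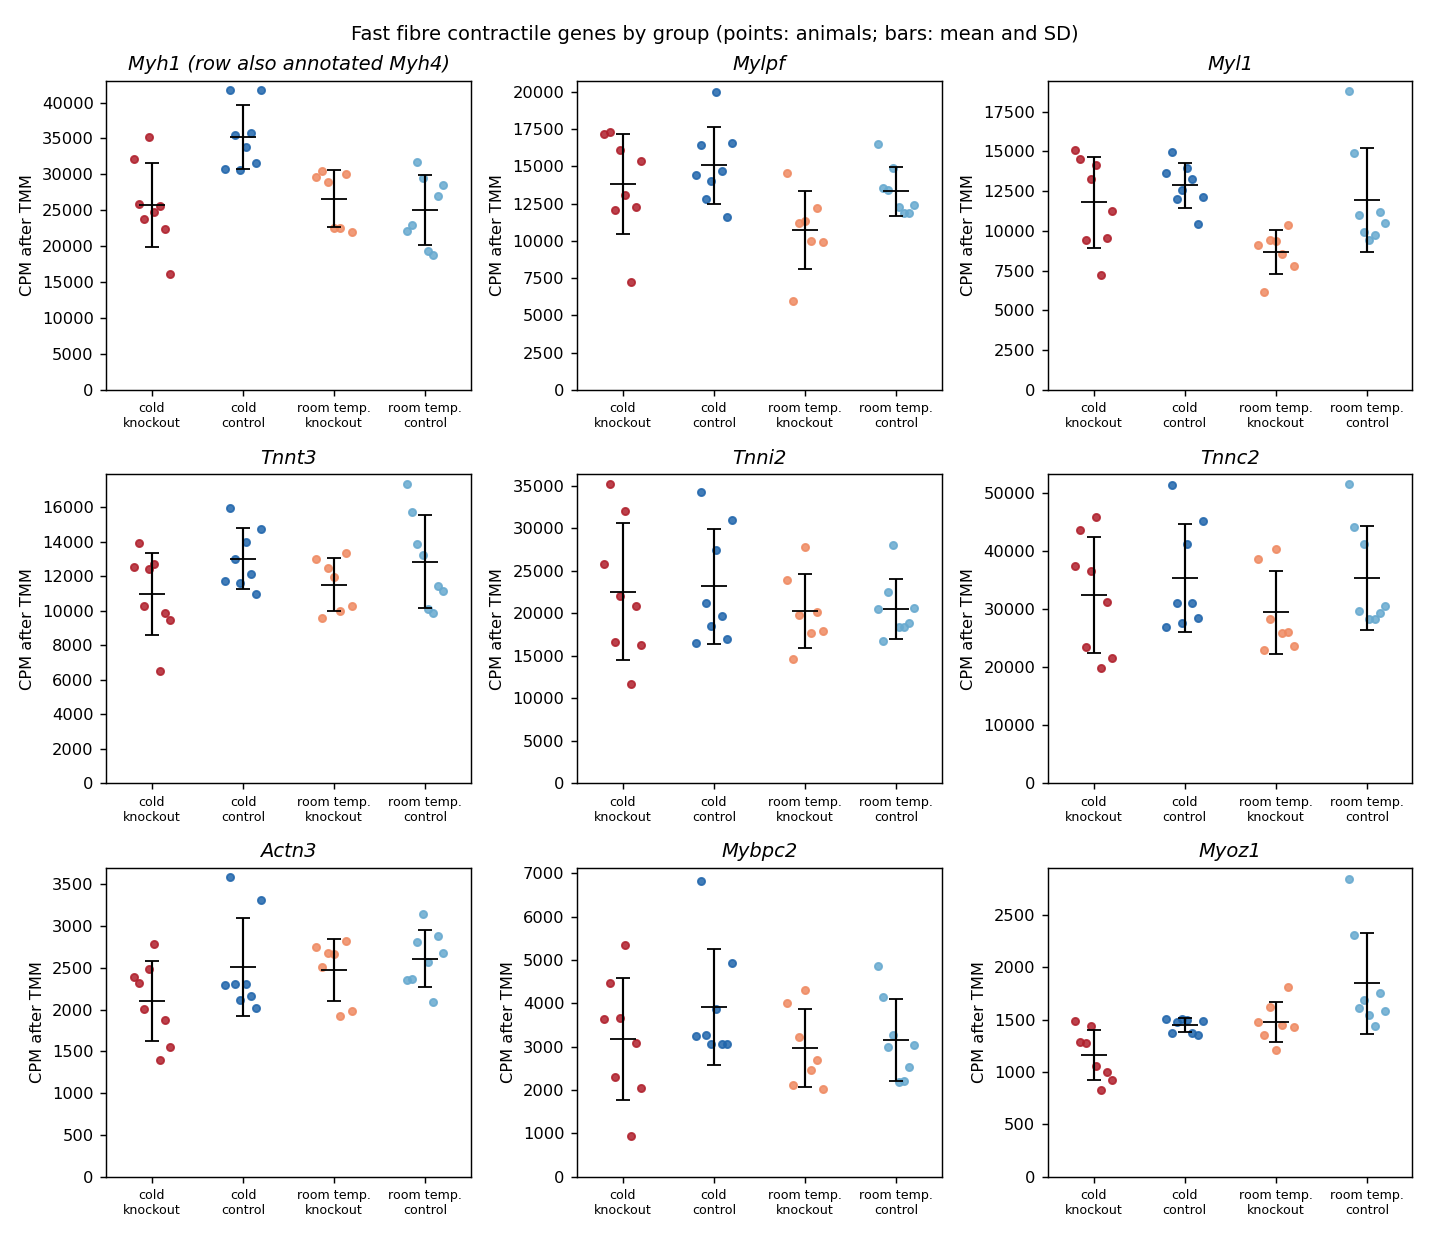
Level of each of the 9 fast genes in CPM after TMM (vertical axes, from 0) in the 4 groups, with a point per animal and bars for the mean and SD. Myoz1 shows the narrow cold control group (1350 to 1510 CPM) below the room-temperature control median of 1648 CPM, and the Myh1 row shows cold controls from 30658 CPM upwards.

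Over the whole set, 0 of 9 fast genes passed with cold in knockouts, beside 1.38% of all genes tested, and 0 of 9 passed in controls, beside 0.853%. At an unadjusted p under 0.05, 3 passed in knockouts (Myl1, Mylpf and Myoz1, beside 14.3% of genes) and 2 in controls (the Myh1 row and Myoz1, beside 14.2%). DESeq2 called 0 in knockouts and 1 in controls, the Myh1 row, beside 322 and 219 genes called in all. Averaged over genotypes, 1 of 9 passed, beside 5.65% of all genes tested. It was lower, as were 1.98% of all genes tested. At an unadjusted p under 0.05 the count was 4, beside 19.5% of genes. Of these, Myoz1 was lower, while the Myh1 row (0.22), Mylpf (0.27) and Myl1 (0.28) were higher. In that average 3 of 9 changes were below 0, beside 53% of genes, and the median was 0.17, where it was -0.02 over all genes tested. Levels of cold and room-temperature animals failed to overlap for 0 of 9 fast genes in either genotype, beside 0.546% of genes in knockouts and 0.436% in controls. Levels of knockouts and controls failed to overlap for 0 of 9, beside 0.00992% of genes in the cold and 0.0595% at room temperature.

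By genotype, 0 of 9 fast genes passed in the cold, beside 0.00992% of all genes, and 0 of 9 at room temperature, beside 0%. At an unadjusted p under 0.05 the counts were 2 in the cold (the Myh1 row and Myoz1, beside 6.28% of genes) and 2 at room temperature (Myl1 and Myoz1, beside 7.06%), and DESeq2 called 0 in both. Changes were below 0 for 9 of 9 in the cold and 8 of 9 at room temperature, where 42.7% and 54.6% of all genes were. Without the TMM factor these counts were 8 and 7. The median change was -0.25 in the cold and -0.16 at room temperature, and it was -0.12 in the cold without cold control 17 and -0.10 at room temperature without control animal 1. The 9 genes varied together across animals, so these counts are a description. Averaged over temperatures, a contrast added after the data were seen, 0 of 9 passed by edgeR, beside 0%, and 0 by DESeq2, which called 8 genes in all. By edgeR, 2 had an unadjusted p under 0.05 (Myoz1 -0.32 and Myl1 -0.29, beside 6.4%), and 9 of 9 were below 0, beside 48.2%. The difference between the cold effects passed for 0 of 9 by edgeR, beside 0% of genes, and for 0 by DESeq2, which called 1 gene in all. By edgeR, 1 of the 9 (the Myh1 row) had an unadjusted p under 0.05, beside 7.31%.

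The slow counterparts of these genes were higher in the cold. Of 12 genes listed as slow or type I, 11 passed as higher in the cold averaged over genotypes and 1, Myl2, did not (0.48 ± 0.21, edgeR adjusted p = 0.191). The list includes Actn2 and Mybpc1 as paralogues of Actn3 and Mybpc2, and whether these are confined to slow fibres was not examined. The median change over the 12 was 0.73 on the log2 scale. Myh7, the slow heavy chain, had a log2 change of 0.88 ± 0.11, Myoz2, the slow calsarcin, 0.89 ± 0.12, and Atp2a2, the slow calcium pump of the reticulum, 0.97 ± 0.13 (edgeR adjusted p = 1.1e-05, 1.76e-05 and 1.79e-05). Slow tropomyosin Tpm3 changed by 0.90 ± 0.15, slow troponin T (Tnnt1) by 0.92 ± 0.17, troponin I (Tnni1) by 0.53 ± 0.096 and troponin C (Tnnc1) by 0.80 ± 0.18. Mybpc1 changed by 0.37 ± 0.072, Actn2 by 0.44 ± 0.11, Casq2, a calcium buffer of slow fibres and heart, by 0.65 ± 0.16, and the light chain Myl3 by 0.47 ± 0.14. Without control animals 1 and 2, 10 of the 11 calls remained, Myl3 being lost (edgeR adjusted p = 0.0716). Myl3 was also lost when any 1 of 18 single libraries was left out.

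Within a genotype, 5 of the 12 slow genes passed in each. They were Atp2a2, Myoz2, Myh7, Mybpc1 and Tnni1 in knockouts, and Atp2a2, Myoz2, Myh7, Tpm3 and Tnnt1 in controls. In knockouts, leaving out room-temperature knockout 14 ended the calls of Atp2a2, Tnni1 and Mybpc1 (edgeR adjusted p = 0.0573, 0.0789 and 0.0702), leaving out cold knockout 29 ended that of Mybpc1 (adjusted p = 0.0520), and leaving out cold knockout 30 or room-temperature knockout 15 ended that of Tnni1 (adjusted p = 0.0505 and 0.0503). In controls, the call of Tnnt1 was lost in 10 of the 31 fits that left out 1 library, and without control animals 1 and 2 together (0.72, edgeR adjusted p = 0.102). When only the libraries compared were fitted, the calls of Atp2a2 and Mybpc1 in knockouts and of Tnnt1 in controls were lost (adjusted p = 0.0748, 0.109 and 0.0650). DESeq2 called 7 of the 12 in each genotype. By genotype 0 of the 12 slow genes passed at either temperature by edgeR or DESeq2, with 0 at an unadjusted p under 0.05. The 9 slow paralogues set against the fast genes took a median of 2.03% of counts in cold knockouts and 1.97% in cold controls, against 1.31% in room-temperature knockouts and 1.31% in room-temperature controls.

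**Figure D2:**
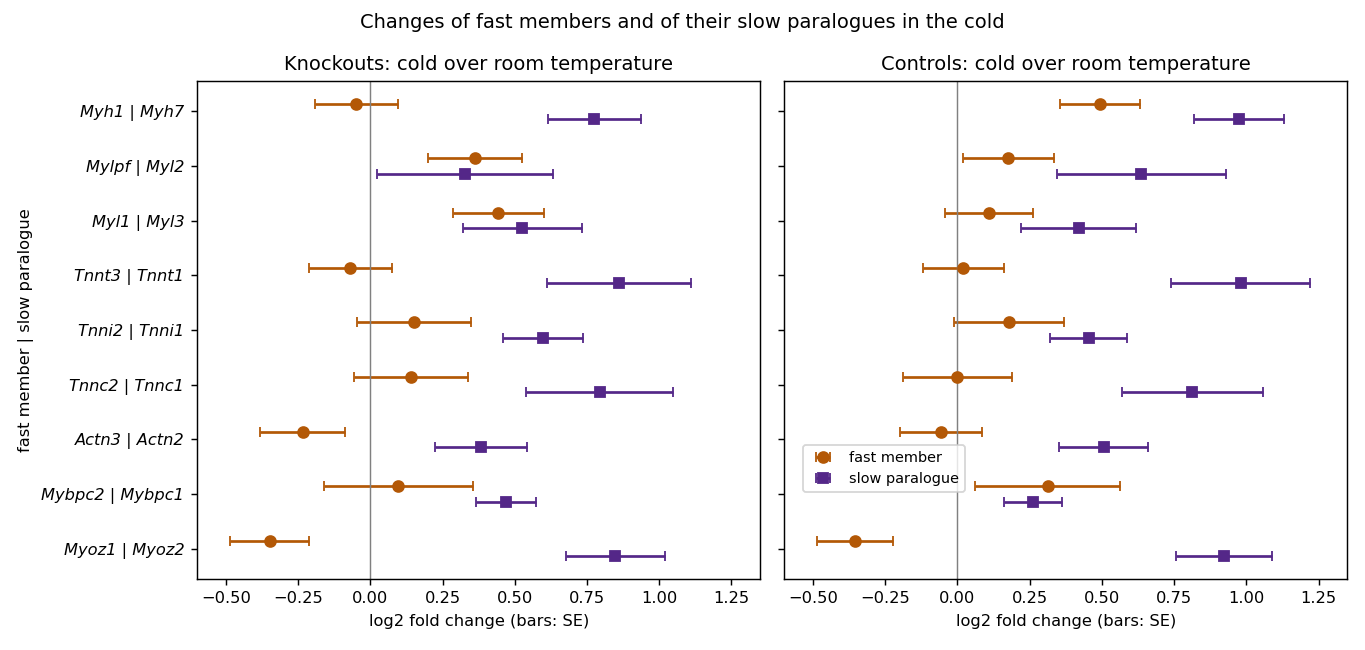
Log2 fold change in the cold (horizontal axes, shared scale, bars SE) of each fast gene (circles) and its slow paralogue (squares), with knockouts in the left panel and controls in the right. The slow gene lies to the right of its fast gene in 8 of 9 pairs in each genotype, and Myoz1 is the fast gene farthest to the left (-0.35 in each).

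The log2 ratio of a fast gene to its slow paralogue compares both within 1 library, where scaling cancels apart from the prior count of 2. In the cold it was lower in 8 of 9 pairs in knockouts and in 8 of 9 in controls. Myoz1 over Myoz2 shifted most. It ranged from -0.17 to 1.37 in cold knockouts, against 1.42 to 2.46 in room-temperature knockouts, and from 0.81 to 1.77 in cold controls, against 2.03 to 3.84 in room-temperature controls. These groups did not overlap in either genotype, with differences between means of -1.21 in knockouts and -1.28 in controls. Without control animals 1 and 2 the difference in controls was -0.91 and the groups still did not overlap, and without cold knockout 29 the difference in knockouts was -1.07.

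In knockouts the groups also did not overlap for Tnnt3 over Tnnt1 and for the Myh1 row over Myh7. Tnnt3 over Tnnt1 averaged 0.26 ± 0.39 in cold knockouts and 1.17 ± 0.39 in room-temperature knockouts (SD, n = 8 and 7), a difference of -0.91. The Myh1 row over Myh7 averaged 2.69 ± 0.29 in cold knockouts and 3.51 ± 0.29 in room-temperature knockouts, a difference of -0.82. In controls both ratios overlapped between temperatures: Tnnt3 over Tnnt1 averaged 0.44 ± 0.24 in the cold and 1.54 ± 1.07 at room temperature, and 7 of 8 cold controls were below the lowest room-temperature control. The Myh1 row over Myh7 averaged 2.99 ± 0.26 in cold controls and 3.49 ± 0.43 in room-temperature controls, a difference of -0.50. Without control animals 1 and 2, the differences in controls were -0.57 for Tnnt3 over Tnnt1 and -0.37 for the Myh1 row over Myh7. Control animal 3, still included there, had a Tnnt3 over Tnnt1 of 2.00, where animals 4 to 8 had 0.72 to 1.01.

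The light chain ratios were the least shifted in knockouts, where Mylpf over Myl2 differed by 0.00 and Myl1 over Myl3 by -0.01 between cold and room temperature. In controls these differences were -0.56 and -0.30, and without control animals 1 and 2 they were -0.05 and -0.02. Mybpc2 over Mybpc1 differed by -0.47 in knockouts, or by -0.20 without animal 29, and by 0.05 in controls, or by 0.25 without animals 1 and 2. Actn3 over Actn2 differed by -0.60 in knockouts and -0.58 in controls, Tnnc2 over Tnnc1 by -0.75 and -0.94, and Tnni2 over Tnni1 by -0.50 and -0.32. For Tnnc2 over Tnnc1 in controls the difference was -0.44 without animals 1 and 2. Between genotypes, no pair had groups that failed to overlap at either temperature, and Myoz1 over Myoz2 had the widest gap, with -0.54 in the cold and -0.61 at room temperature. Without control animals 1 and 2 its difference at room temperature was -0.24, and that of Actn3 over Actn2 was wider at -0.31. In the cold, 5 of 8 knockouts lay below the lowest control for Myoz1 over Myoz2.

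**Figure D3:**
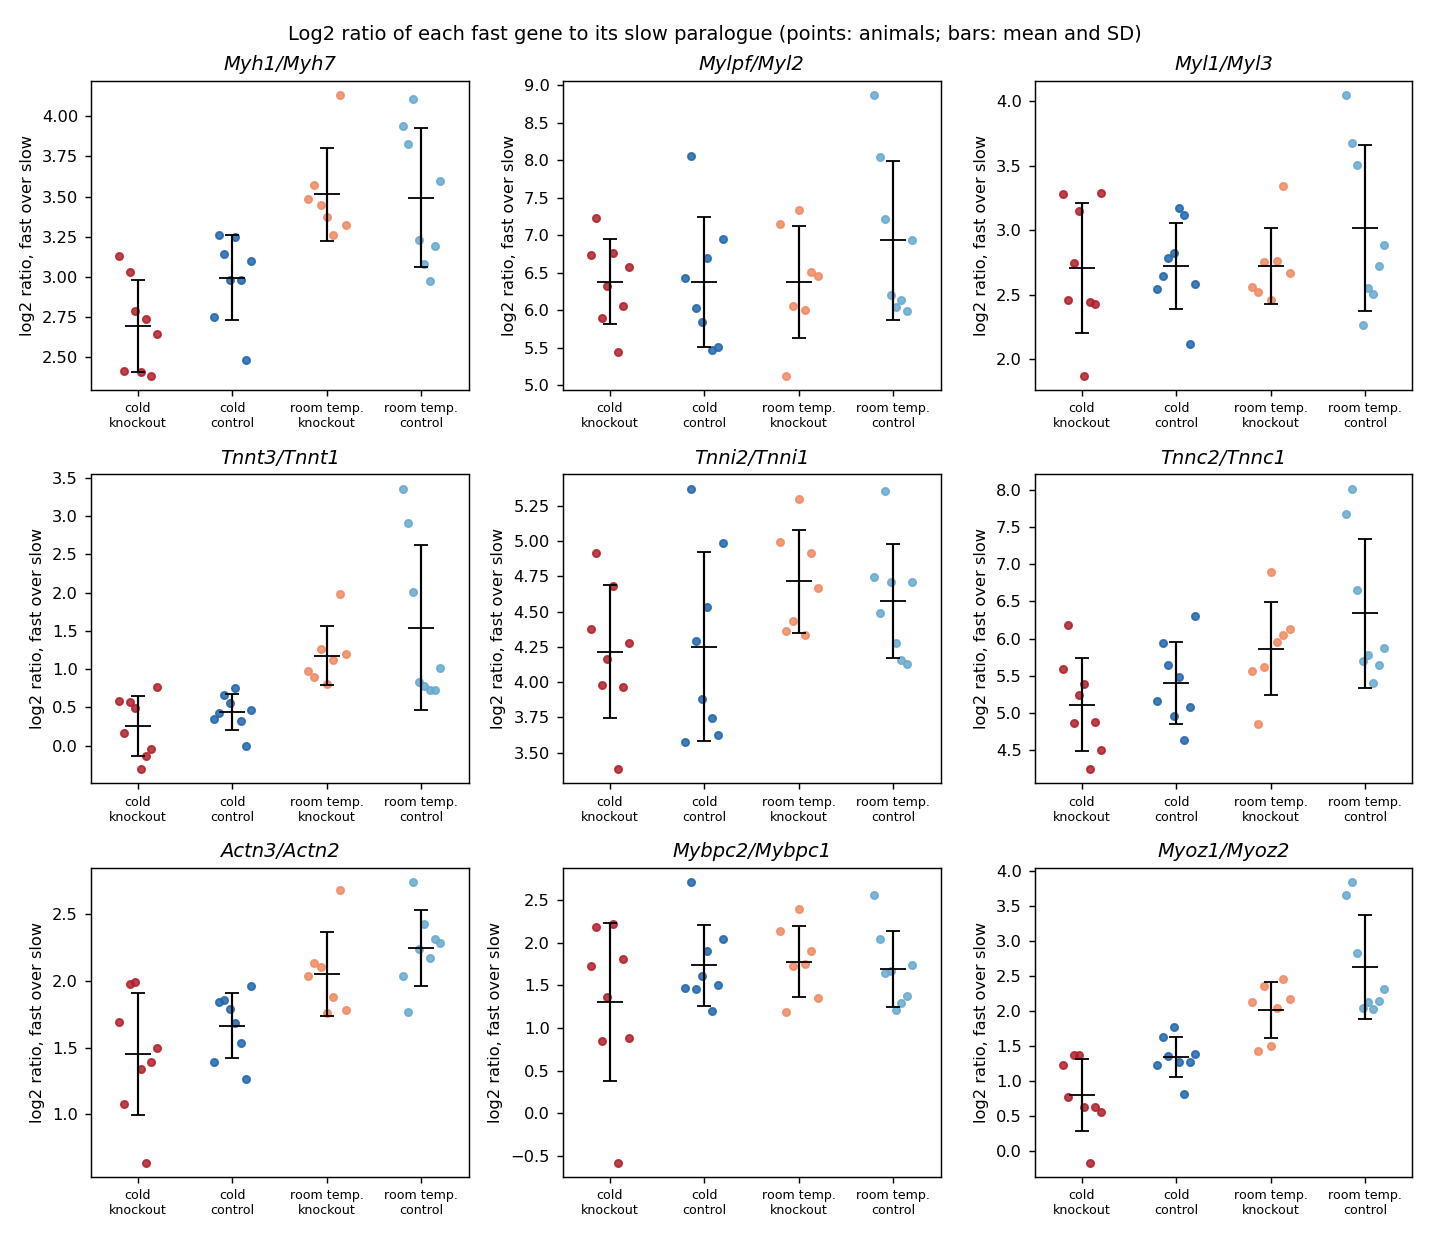
Log2 ratio of each fast gene to its slow paralogue (vertical axes) in the 4 groups, with a point per animal and bars for the mean and SD. For Myoz1 over Myoz2 the cold animals of each genotype lie below all room-temperature animals of that genotype, while for Myl1 over Myl3 the group means span only 2.71 to 3.02.

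Other genes of the fast fibre program were followed beside the members. Of 17 listed, 15 were tested, while Myh4 and Atp2a1 are not analysed here. In the cold averaged over genotypes 1 rose and 1 fell. Casq1, the calcium buffer of the fast reticulum, was higher by 0.55 ± 0.17 (edgeR adjusted p = 0.0481), a call lost in 23 of the 31 fits that left out 1 library and without the filter on low counts (adjusted p = 0.05003). Mss51, a gene of fast fibres known in mouse muscle as a target of myostatin signalling, was lower by -0.92 ± 0.15 (adjusted p = 3.3e-04), with means of 111 ± 47.7 CPM in cold knockouts, 175 ± 39.9 CPM in cold controls, 260 ± 53.2 CPM in room-temperature knockouts and 267 ± 30.8 CPM in room-temperature controls (SD). In knockouts Mss51 changed by -1.23 ± 0.22 and passed by itself (edgeR adjusted p = 0.00259), but not when only the libraries compared were fitted (adjusted p = 0.0517). Parvalbumin (Pvalb), the soluble calcium buffer of fast fibres, changed by 0.39 ± 0.13 and did not pass (edgeR adjusted p = 0.0716), although DESeq2 called it. The median change of the 15 was -0.15, and 12 of 15 were below 0.

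Of 18 sarcomere genes shared by fibre types, 14 were tested and 1 passed in the average, Mypn, which encodes the Z-disc protein myopalladin (0.32 ± 0.085, edgeR adjusted p = 0.0220), a call lost without the TMM factor (adjusted p = 0.0570). Myom1, a protein of the M-band, passed in controls (1.17 ± 0.27, edgeR adjusted p = 0.0276), and not without control animals 1 or 2 or 8 at room temperature or cold controls 17 or 21. Its cold effect differed between genotypes by -1.13 ± 0.38, which did not pass (edgeR adjusted p = 0.538).

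Of 31 listed regulators of fibre type, 26 were tested, and 23 did not pass in the average. Esrrg, an orphan nuclear receptor of oxidative muscle, rose by 0.79 ± 0.14 and Rcan1, a feedback inhibitor and target of calcineurin, by 1.15 ± 0.23 (edgeR adjusted p = 8.66e-04 and 0.00193).

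Of 8 embryonic or cardiac sarcomere genes, 5 were higher in the cold averaged over genotypes: embryonic heavy chain Myh3 by 1.87 ± 0.30, cardiac troponin I (Tnni3) by 2.51 ± 0.39, cardiac troponin T (Tnnt2) by 1.78 ± 0.35, cardiac actin Actc1 by 1.13 ± 0.23 and cardiac heavy chain Myh6 by 0.71 ± 0.20. Their edgeR adjusted p-values were 1.45e-04, 1.03e-04, 0.00197, 0.00273 and 0.0262. The Myh6 call was lost without room-temperature knockout 14 (edgeR adjusted p = 0.0521), without control animals 1 and 2 (adjusted p = 0.0502) and without the TMM factor (adjusted p = 0.0535).

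Markers of other cells of the tissue were examined beside these changes. Of 8 white adipocyte markers tested, 2 rose in the cold averaged over genotypes, Retn and Lpl (4 by DESeq2), and the summed level of the list ran from 1161 to 2194 CPM in cold knockouts and 1012 to 1343 CPM in cold controls, against 923 to 1206 CPM in room-temperature knockouts and 463 to 1160 CPM in room-temperature controls. Of 8 immune markers, 3 rose (Cd163, S100a8 and S100a9), with sums of 199 to 312 CPM in cold knockouts and 186 to 353 CPM in cold controls, against 150 to 265 CPM in room-temperature knockouts and 61.2 to 220 CPM in room-temperature controls. Of 4 erythrocyte rows tested, 3 rose, Alas2 and both rows named Hba-a2, while Hbb did not pass (-0.02, edgeR adjusted p = 0.988). Reads of the Hba-a2 rows may be shared, and 1 of these rows was lost in 8 of the 31 fits that left out 1 library. The erythrocyte list summed to 444 to 2018 CPM in cold knockouts and 467 to 1082 CPM in cold controls, against 254 to 1079 CPM in room-temperature knockouts and 336 to 659 CPM in room-temperature controls. Of 7 endothelial markers 1 fell, Cdh5, by 0.59 ± 0.12 on the log2 scale. Of 9 fibroblast and tendon markers 0 passed by edgeR or DESeq2, with 3 at an unadjusted p under 0.05 (Comp 1.01, Chad 1.15 and Scx -0.45), and of 5 Schwann cell markers 0 passed by either tool, with 1 at an unadjusted p under 0.05. The part of these cells in the changes of the fast genes was not tested.

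The fast genes varied together from animal to animal. After the mean of each group was removed from the log2 levels, all 36 pairs of members had a Pearson r above 0 over the 31 libraries, with a median of 0.677, and 6 pairs were above 0.8. Tnnc2 and Mybpc2 were the closest pair (r = 0.920), and Tnnt3 and Mybpc2 came next (r = 0.899). The Myh1 row had the lowest median r with the other members, 0.331, and Myoz1 the next, 0.472. For the Myh1 row r was 0.135 to Mylpf and 0.146 to Myl1, but 0.679 to Actn3. These correlations describe libraries that share their preparation and scaling, and the members' levels also ran against the TMM factor of the library, with r from -0.856 for Tnnc2 to -0.476 for the Myh1 row. A TMM factor computed without the members, the slow paralogues and the mitochondrial genes correlated with the factor used at r = 0.996.

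The spread within groups differed among members. The residual SD of the log2 level was 0.250 for Myoz1 and 0.265 for the Myh1 row, and 0.542 for Mybpc2, while its median was 0.360 over the 113 genes with a mean of at least 1000 CPM. Tnnc2, Mybpc2 and Tnni2 followed the first principal component of all genes (r = 0.872, 0.813 and 0.785), which the Myh1 row and Myoz1 did little (r = 0.228 and 0.0877). In cold knockout 29 the members summed to 81431 CPM, the lowest of all libraries, and in cold control 17 to 186558 CPM, the highest.

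**Figure D4:**
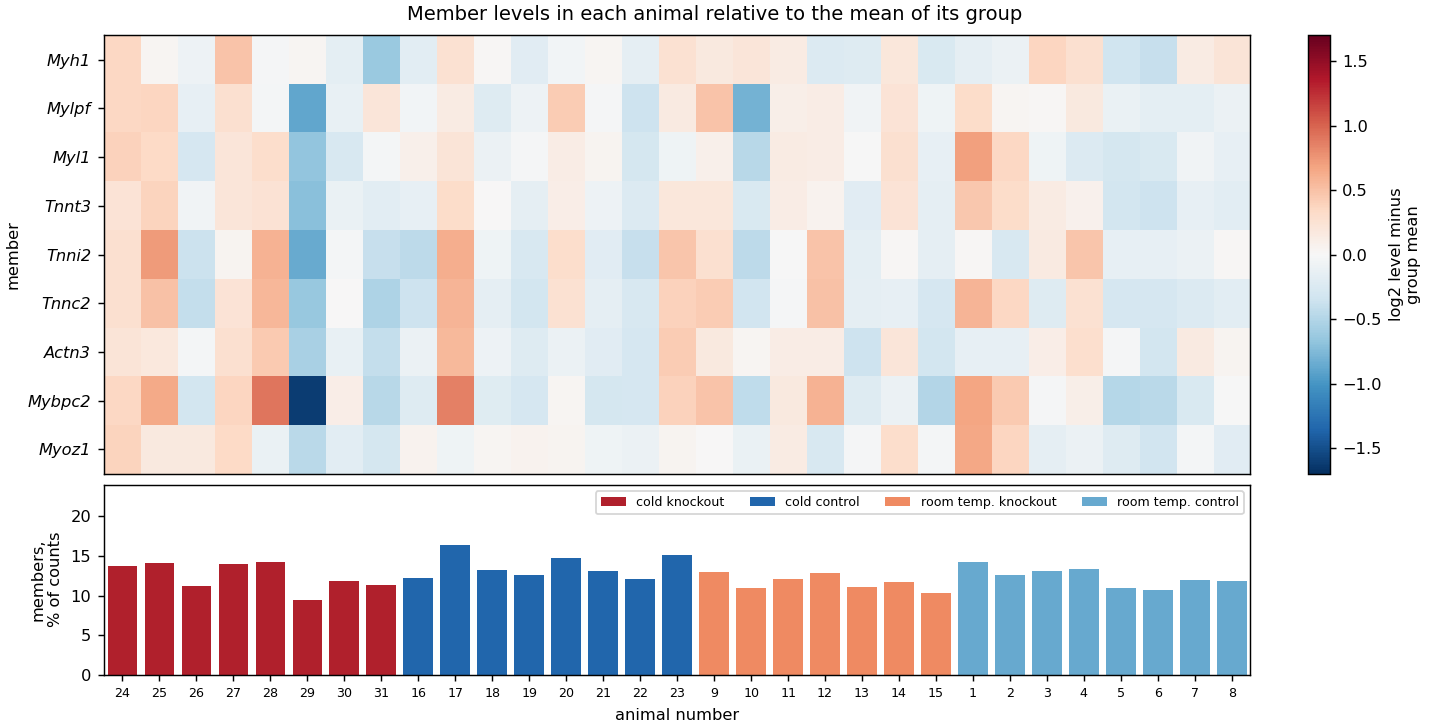
Log2 level of each fast gene minus the mean of its group in every animal (upper panel, colour scale from -1.7 to 1.7) and the percent of the library's counts taken by the 9 genes (lower panel, axis from 0). Animal 29 is low in 8 of 9 rows, animals 1 and 2 are high for Myl1 and Myoz1, and the shares run from 9.40 to 16.3%.

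Among 6684 named genes outside the set with a mean of at least 5 CPM, those whose residual log2 level was most like the mean of the 9 members were glycolytic and calcium-handling genes of muscle and 1 other. They were Pgk1 (r = 0.894), Ccdc91 (0.893), Casq1 (0.892), the muscle enolase Eno3 (0.885) and Pvalb (0.885). The least alike were Ctsl, a lysosomal protease (r = -0.847), Akr1c15 (-0.846), Eny2 (-0.843), Rps6ka5 (-0.839) and Stx3 (-0.832). Each r is over 31 libraries that share the scaling, and is a description of likeness only. Of the slow counterparts, r with the member mean lay between -0.54 for Myl2 and 0.39 for Actn2.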

How the data were processed

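Gastrocnemius RNA was extracted with Trizol and an RNeasy kit and made into QuantSeq 3′ libraries, per the labels' protocols. The deposited raw table holds the authors' counts of reads per gene for all 31 libraries. The second deposited table holds signal, the authors' counts divided by size factors. The ratio of the tables was constant within a library to a relative spread of 1.01e-09, so only the counts were tested. Build Rnor 6.0 and DESeq2 1.22.2 come from the submitters' processing notes. For the aligner, the counter and strandedness, nothing is given in the sources used here, and none mentions molecular identifiers, so counts may include PCR copies. Among all 11289 genes of the raw table, the lowest total over the 31 libraries was 93 counts.

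Genes kept by filterByExpr (minimum count 10, minimum total 15), 10082 of 11289, were scaled by TMM and fitted with edgeR 4.0.16 in R 4.3.3 with 1 mean per group over all 31 libraries, leaving 27 residual degrees of freedom. P-values are two-sided and adjusted by Benjamini-Hochberg over all tested genes within each comparison, with a threshold of 0.05. Log2 levels use a prior count of 2. SE is the size of the log2 change over the square root of F. The fitting steps were tested on simulated counts, with changes given to randomly drawn genes in cold controls. Of the changes against room-temperature controls, 20.9% were recovered at 1.5-fold, 55.2% at 2-fold and 93.8% at 3-fold. Small changes were thus mostly missed in that simulation. Ratios and correlations are descriptions without tests. Where labels do not state separate origins beyond an animal number, p-values measure the spread between these animals.

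The members and gene lists were chosen with earlier results of these data known. The genes named are all members, the 12 slow counterparts, the passing genes of the other lists or else up to 3 by smallest p, and the 5 genes most and 5 least like the members' mean. Alternatives were DESeq2 1.42.0, RLE scaling, TMM without members, slow paralogues and mitochondrial genes, no filter, only the libraries compared, the first principal component or first surrogate variable (sva 3.50.0) as covariate, leaving out control animals 1 and 2, and leaving out each library. Scaling by totals alone, leaving out animals 1, 2 and 29 together, and the knockout effect averaged over temperatures were added after seeing the data. Promoter windows came from RefSeq (GRCr8), while counts rest on Rnor 6.0, so no coordinates of counted features are given. Ucp1, Myh2, Myh4 and Atp2a1 are not analysed here. A fibre-type regulator and a Schwann cell marker that the naming rule selects are not reported here.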

Additional observations from a re-analysis of the deposited data

Results flagged for a closer look

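Room-temperature knockout 14 stood apart from the other 6 animals of its group in 4 fast-to-slow log2 ratios, in each of which it was the highest. The log2 ratio was 2.68 for Actn3 over Actn2, with the next animal at 2.13, and 4.13 for the Myh1 row over Myh7, with the next at 3.57. It was 3.34 for Myl1 over Myl3, with the next at 2.76, and 1.98 for Tnnt3 over Tnnt1, with the next at 1.26. The gap to the next animal was 0.594 to 0.663 of the range of the group, above Dixon's critical value of 0.568 for 7 samples. In all, 80 groups of values were examined and these 4 were flagged, and chance alone flags about 1 in 20. The 4 ratios come from 1 library and are not separate observations.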

How the results depend on the processing

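Myoz1 remained past the threshold in the cold averaged over genotypes in all 31 fits that left out 1 library, with changes from -0.38 to -0.29 and adjusted p from 0.0136 to 0.0433. It was lost without control animals 1 and 2 (-0.24, edgeR adjusted p = 0.0587) and without animals 1, 2 and 29 (-0.22, adjusted p = 0.0581), and it passed in the other 7 settings. The count of fast genes past the threshold with cold in controls was 1, the Myh1 row, under DESeq2, with the first principal component and with the first surrogate variable as covariate (adjusted p = 0.0260, 0.0472 and 0.0461). In knockouts it was 1, Myl1, with the first principal component (adjusted p = 0.0495) and without animals 1, 2 and 29 (adjusted p = 0.0178). Averaged over genotypes it was 2, Myl1 and Mylpf (0.42 and 0.35), without animals 1, 2 and 29, and it was 1, Myl1 (0.39, adjusted p = 0.0131), without animals 1 and 2. Leaving out single libraries gave 1 to 2 for that average, the 2 being Myoz1 and Myl1 (0.34) without room-temperature control 1. Calls over all genes rose as well. In controls they went from 86 in the main fit to 219 under DESeq2 and 379 with the first principal component. With that covariate they went from 139 to 674 in knockouts. Without animals 1 and 2 they went from 570 to 730 in the average. The cause of these shifts was not tested. No fast or listed gene reversed a call. Of 2556 member values under other settings, 95 changed sign, none of them called in either fit. The median member change in controls was 0.11 and lay at -0.00 with the first principal component as covariate, where 4 of 9 were above 0. No scaling moved the median of all genes by more than 0.084. No paired analysis was possible because animal numbers do not recur across groups. The spread between animals limits the precision: the 95% interval of the cold effect on Tnnc2 in controls ran from -0.39 to 0.39.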
